A study of Mus musculus with 12 samples.

Results

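The genes described here encode the proteins of the mitochondrial ribosome and of the machinery that imports proteins into mitochondria. They are all genes whose symbol in the array annotation starts with Mrpl, Mrps, Tomm or Timm followed by a digit, leaving out Tomm22. Mrpl and Mrps are named for the large and the small ribosomal subunit. Tomm and Timm are named for the translocases of the outer and the inner membrane. A prefix is a name, and the place of each protein was not checked against it. The rule used no measured value. It gave 97 genes with 170 probes, out of 19057 named genes with 34885 probes. Of the 97, 91 genes with 141 probes passed the detection filter and were tested, out of 10096 tested genes. They comprised 46 of 48 Mrpl genes, 28 of 28 Mrps genes, 6 of 6 Tomm genes and 11 of 15 Timm genes. Mrpl19, Mrpl32, Timm13, Timm17b, Timm22 and Timm23 had no probe detected on all 3 arrays of any group.

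RNA was measured on 12 Illumina mouse bead arrays, 3 for each of 4 kinds of cells, with the OG2 mouse line named in the labels of ESC and MEF. The iPS6F cells are induced pluripotent stem cells, labelled male, made with Oct4, Sox2, Klf4, c-myc, Brg1 and Baf155. The iPS4F cells, labelled male, were made with Oct4, Sox2, Klf4 and c-myc only. The added proteins, Brg1 and Baf155, belong to the BAF complex, which remodels chromatin. ESC are embryonic stem cells of mixed sex by their label, and MEF are male embryonic fibroblasts, which are the differentiated cells reprogramming starts from. The labels give no passage or clone for the iPS cells and do not say whether the 3 arrays of a group hold RNA of separate cultures. The p-values therefore rest on the spread among these arrays, which may be technical.

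Mitochondria carry a small genome that encodes membrane subunits of the respiratory chain, and their own ribosome translates it. All proteins of that ribosome are encoded in the nucleus, made in the cytosol and imported. Precursors enter through the outer membrane channel Tomm40 with its receptors and small subunits. The presequence translocase of the inner membrane, with Timm50, Timm23, Timm17 and Timm21, then takes up proteins with a cleavable signal, and the Timm44-bound motor pulls them into the matrix. The small Tim chaperones of the intermembrane space (Timm8, Timm9, Timm10 and relatives) guide membrane proteins to the carrier translocase built on Timm22, of which Timm29 is a subunit in human cells. Pluripotent cells are known for small, immature mitochondria and a strong use of glycolysis.

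Promoters of 6 members are printed because their transcripts carry the findings below. Mrpl9 was higher in the iPS lines than in ESC, and Mrps12 and Timm50 rose strongly in all pluripotent cells. Timm8a1 was highest in ESC, though its lead over the iPS lines depended on the scaling. Timm29 alone among the members separated the iPS lines, and Mrps31 had the largest change. Each promoter is the RefSeq sequence (GRCm38.p6), 5′ to 3′ on the gene's strand, from 250 bases before to 50 bases after the annotated start. Capitals mark a match to one of 4 motifs, searched on both strands: GCGC and TGCGC with any 1 base between them (NRF1 type), CCGGAAG (ETS type), AAGATGGCG (YY1 type) and CACGTG (E-box). The windows are chr3:94443086-94443385 on the plus strand for Mrpl9, chr7:28741772-28742071 on the minus strand for Mrps12, chr7:28311997-28312296 on the minus strand for Timm50, chrX:134541621-134541920 on the minus strand for Timm8a1, chr9:21592472-21592771 on the plus strand for Timm29 and chr8:22411090-22411389 on the plus strand for Mrps31.
Mrpl9: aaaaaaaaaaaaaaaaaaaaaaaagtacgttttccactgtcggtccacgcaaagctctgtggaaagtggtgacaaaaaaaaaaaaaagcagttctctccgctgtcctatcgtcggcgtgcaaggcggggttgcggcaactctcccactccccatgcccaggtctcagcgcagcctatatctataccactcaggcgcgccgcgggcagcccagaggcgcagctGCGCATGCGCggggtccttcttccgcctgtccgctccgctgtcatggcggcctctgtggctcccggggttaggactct
Mrps12: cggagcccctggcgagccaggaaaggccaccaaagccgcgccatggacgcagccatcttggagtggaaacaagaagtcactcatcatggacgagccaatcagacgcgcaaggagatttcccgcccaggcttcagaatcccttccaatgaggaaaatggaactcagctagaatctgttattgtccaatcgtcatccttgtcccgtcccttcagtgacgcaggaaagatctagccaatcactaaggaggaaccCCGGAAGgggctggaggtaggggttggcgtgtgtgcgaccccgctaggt
Timm50: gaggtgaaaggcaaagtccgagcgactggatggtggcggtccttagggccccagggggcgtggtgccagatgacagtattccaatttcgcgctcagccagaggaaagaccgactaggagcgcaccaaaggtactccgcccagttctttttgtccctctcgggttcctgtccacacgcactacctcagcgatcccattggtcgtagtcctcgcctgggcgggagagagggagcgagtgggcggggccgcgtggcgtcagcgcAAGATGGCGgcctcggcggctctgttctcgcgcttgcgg
Timm8a1: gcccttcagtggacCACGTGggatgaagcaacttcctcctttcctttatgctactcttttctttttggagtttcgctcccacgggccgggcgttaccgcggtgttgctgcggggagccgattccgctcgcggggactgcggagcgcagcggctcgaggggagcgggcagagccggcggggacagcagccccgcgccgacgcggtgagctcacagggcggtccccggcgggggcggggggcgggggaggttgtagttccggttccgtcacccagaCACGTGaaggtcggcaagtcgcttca
Timm29: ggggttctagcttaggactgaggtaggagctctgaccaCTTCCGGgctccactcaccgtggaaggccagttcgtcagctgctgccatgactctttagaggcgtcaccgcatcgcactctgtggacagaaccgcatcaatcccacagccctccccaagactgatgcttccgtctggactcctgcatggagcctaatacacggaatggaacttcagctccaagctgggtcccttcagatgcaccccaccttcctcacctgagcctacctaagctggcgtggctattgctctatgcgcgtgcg
Mrps31: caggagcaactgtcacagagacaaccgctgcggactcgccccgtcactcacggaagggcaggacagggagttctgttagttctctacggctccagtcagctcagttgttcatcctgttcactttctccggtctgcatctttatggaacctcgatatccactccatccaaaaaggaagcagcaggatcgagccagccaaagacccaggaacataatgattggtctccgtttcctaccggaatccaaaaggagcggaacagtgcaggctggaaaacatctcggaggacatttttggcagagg

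In capitals stand the NRF1-type match of Mrpl9, the ETS-type match of Mrps12, the YY1-type match of Timm50 just after its start, the pair of E-boxes of Timm8a1 and, on the reverse strand, the ETS-type match of Timm29. The Mrps31 window holds none of the 4 motifs. RefSeq promoters were matched to 85 of the 97 members (93 windows). The ETS-type motif, which GABP binds, stood in 40% of these genes, against 20% of 8143 tested genes and 9.93% of all 27025 genes of the promoter table. The YY1-type motif stood in 10.6% of the members, against 3.57% of tested genes and 1.64% of all genes, and the NRF1-type motif in 16.5%, against 11.5% and 5.19%. E-boxes were in 9.41% of the members, against 11.9% and 8.09%. Any of the 4 stood in 63.5% of the members, 38.8% of tested genes and 21.3% of all genes. A neighbouring gene that starts within 1000 bases on the other strand, pointing away, was found for 31 of the 85 members (36.5%), against 19.1% of tested genes and 12.2% of all genes. A match is a run of letters and not a bound site.

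**Figure D1:**
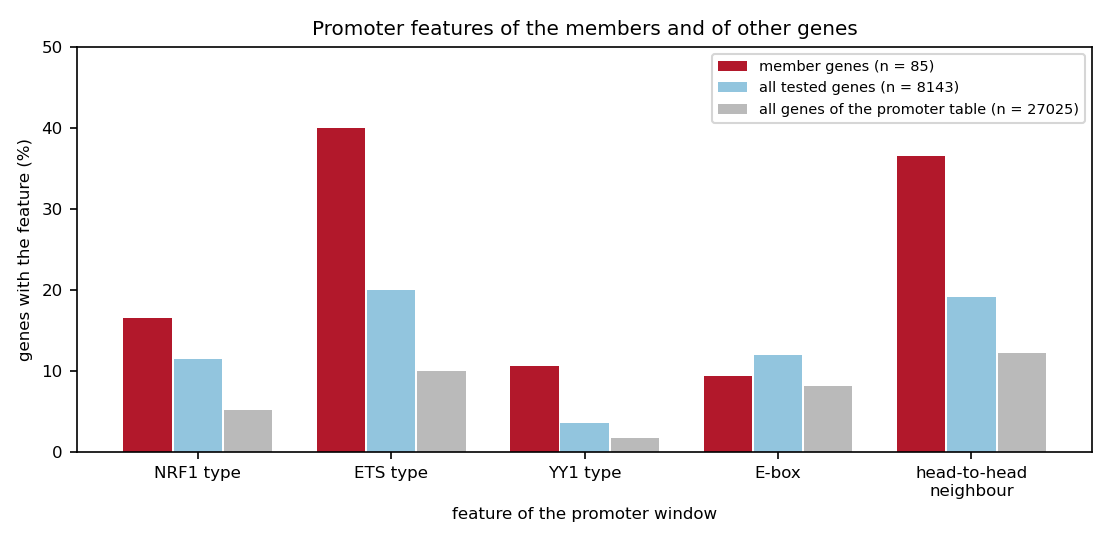
Share of genes (percent, vertical axis) whose promoter window holds each motif or that have a head-to-head neighbour within 1000 bases, for the 85 members, 8143 tested genes and 27025 genes of the promoter table. The bars of the members are the tallest for the ETS type (40%), the YY1 type, the NRF1 type and the neighbour, and lie between the others for the E-box.

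Levels are log2 intensities after background correction and quantile normalization, and differences are log2 differences of group means ± SE, with n = 3 arrays a group. A gene is called higher or lower where limma's adjusted p is under 0.05. The mean raw intensity of an array ran from 139 to 237, detected probes from 14107 to 17741, and arrays of a group correlated at 0.990 to 0.995 across genes. Quantile normalization gives all arrays the same distribution. With median scaling in its place, the median of all tested genes was 0.39 in iPS4F against ESC, 0.09 in iPS6F against ESC and -0.14 in ESC against MEF. Under quantile normalization these medians were -0.05, -0.07 and 0.08, so directions are given with both scalings where they part. All 8 pluripotency markers (Pou5f1, Nanog, Sox2 and others) were higher in iPS6F, iPS4F and ESC than in MEF, and all 8 fibroblast markers were lower. Of 6 macrophage markers 5 were tested. All 5 were detected on every MEF array, with Lyz2 at 9.61 and C1qb at 7.16. Their summed linear level was 92 to 106 on iPS6F arrays, 89 to 98 on iPS4F arrays and 91 to 97 on ESC arrays, against 914 to 1297 on MEF arrays, and their part in the results against MEF was not tested. In bulk RNA, fewer cells with a transcript and less of it per cell cannot be told apart.

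Most of the mitochondrial ribosome and import genes had more transcript in embryonic stem cells than in fibroblasts. Of the 91 members, 72 rose and 5 fell in ESC against MEF, where 40.3% of all tested genes rose and 36.3% fell. The median difference of the members was 0.92, against 0.08 for all genes. At least a 2-fold rise was seen for 43 members and a 2-fold fall for 0, against 19.8% and 18.8% of all genes. The rise spread over the families: 35 of 46 Mrpl, 23 of 28 Mrps, 6 of 6 Tomm and 8 of 11 Timm genes rose, with medians of 0.89, 1.01, 0.83 and 0.95. Ribosomal proteins with a counterpart in bacteria (36 of 45 higher, median 1.01) and those of the mitochondrial ribosome alone (22 of 29 higher, median 0.92) had similar shares. Among genes of similar mean level, between 7.41 and 9.37 (the quartiles of the members), 37 of 45 members rose, against 53.2% of 2058 tested genes. Under median scaling 46 members rose and 5 fell in ESC against MEF, and 90.2% of the called members were higher, against 37.9% of all called genes (93.5% and 52.6% under quantile normalization).

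**Figure D2:**
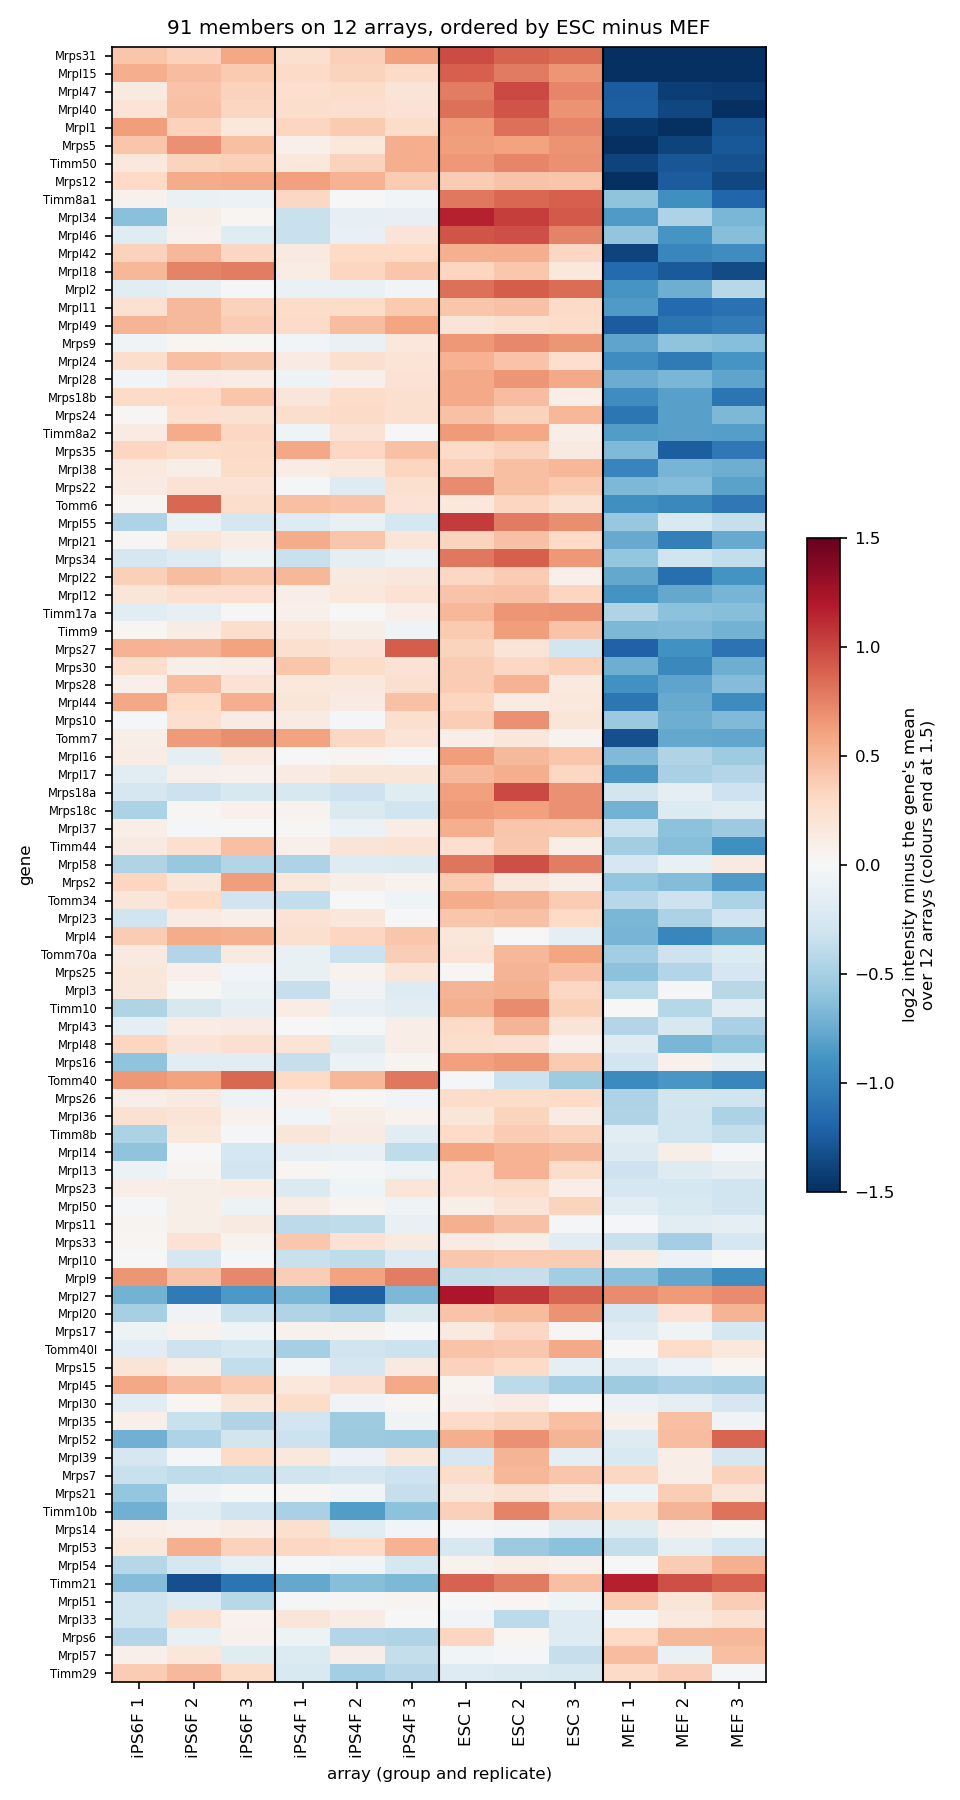
Level of the 91 members (rows, ordered by the difference of ESC minus MEF) on the 12 arrays (columns), as log2 intensity minus the gene's mean over the arrays, with colours ending at 1.5. Most rows are blue in the 3 MEF columns and red in the pluripotent ones. The rows of Timm21 and Mrpl27 are blue in the 6 iPS columns, and those of Mrpl9 and Tomm40 are red there.

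Ribosomal proteins gave the largest rises. Mrps31, a small subunit protein with no bacterial counterpart, read 10.82, 10.75 and 10.98 on the iPS6F arrays, 10.64, 10.76 and 11.02 on the iPS4F arrays and 11.38, 11.28 and 11.24 on the ESC arrays, against 8.51, 8.74 and 8.71 on the MEF arrays. Every pluripotent array lay far above every MEF array. The order of ESC and the iPS lines was not settled, since the kept probes disagreed there and median scaling turned the difference of iPS4F from ESC to 0.10. The difference was 2.65 ± 0.12 in ESC (6.27-fold, adjusted p = 2.04e-12), 2.15 ± 0.12 in iPS4F and 2.20 ± 0.12 in iPS6F. Mrpl15, the counterpart of a core protein of the bacterial large subunit, read 10.68, 10.60 and 10.53 in iPS6F, 10.43, 10.48 and 10.43 in iPS4F and 11.04, 10.92 and 10.81 in ESC, against 8.63, 8.53 and 8.61 in MEF. Its replicate values were tight and the MEF arrays again stood far below the rest (ESC 2.33 ± 0.10 above MEF, adjusted p = 1.1e-12). Mrps5, a small subunit protein near the path of the messenger RNA in bacteria, read 7.47, 7.74 and 7.51 in iPS6F, 7.13, 7.21 and 7.60 in iPS4F and 7.68, 7.66 and 7.72 in ESC, against 5.47, 5.67 and 5.78 in MEF. No MEF array came within 1 log2 unit of a pluripotent one. Mrpl47 (2.20 ± 0.11), Mrpl40 (2.19 ± 0.11) and Mrpl1 (2.18 ± 0.12) rose 4.52-fold to 4.58-fold in ESC. Mrps12, which lines the decoding centre, stood above MEF by 1.86 ± 0.12 in iPS6F, by 1.90 ± 0.12 in iPS4F and by 1.80 ± 0.12 in ESC. The 3 pluripotent groups thus lay within 0.10 of each other under quantile normalization. Under median scaling they lay further apart, with rises of 1.845 in iPS6F, 2.248 in iPS4F and 1.546 in ESC.

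On the import side, 14 of 17 Tomm and Timm genes rose and 1 fell in ESC against MEF, with a median of 0.88. Timm50, the receptor of the presequence translocase, read 8.79, 8.97 and 9.0 on the iPS6F arrays, 8.79, 8.98 and 9.18 on the iPS4F arrays and 9.29, 9.37 and 9.32 on the ESC arrays, against 7.25, 7.35 and 7.33 on the MEF arrays. All pluripotent arrays were well above all MEF arrays. The rise was 2.02 ± 0.11 in ESC (4.05-fold, adjusted p = 3.62e-11), 1.67 ± 0.11 in iPS4F and 1.61 ± 0.11 in iPS6F. Its partner Timm17a, a channel subunit, rose by 1.18 ± 0.10 in ESC, and Timm44, which tethers the motor, by 0.95. Of the 6 small Tim chaperones 5 rose in ESC. Timm8a1, whose human counterpart is mutated in the deafness-dystonia syndrome, read 8.65, 8.49 and 8.5 in iPS6F, 8.90, 8.59 and 8.55 in iPS4F and 9.38, 9.44 and 9.48 in ESC, against 7.98, 7.66 and 7.39 in MEF. ESC was highest, MEF lowest and the iPS arrays between them without overlap, with ESC 1.76 ± 0.14 above MEF. Median scaling ended the calls of both iPS lines against ESC. The differences there were -0.09 in iPS4F (limma's adjusted p = 0.801) and -0.63 in iPS6F (limma's adjusted p = 0.0755). Timm8a1 lies on the X chromosome, and the sex mix of ESC cannot be told apart from its cell type. Timm8a2 was detected on no MEF array and was called higher in ESC, iPS4F and iPS6F (adjusted p of 4.54e-07, 2.96e-05 and 1.31e-06 in limma's fit). The size depended on the background step, with 0.46 to 3.84 in ESC, 0.31 to 3.09 in iPS4F and 0.41 to 3.65 in iPS6F over the alternatives, so no fold is given.

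In the outer membrane all 6 Tomm genes rose in ESC. The small subunits Tomm6 and Tomm7 rose in every pluripotent group, Tomm6 by 1.23 in ESC, 1.35 in iPS4F and 1.38 in iPS6F and Tomm7 by 1.07, 1.33 and 1.43 in the same order. Tomm34, a cytosolic partner of the chaperones, was 0.88 above MEF in ESC, and Tomm70a, the receptor for carrier proteins, 0.78 above. Under median scaling the calls of Tomm34, Tomm70a and Tomm40 in ESC against MEF ended (0.42, 0.44 and 0.28) with the direction kept, and Tomm40l turned to -0.07, so that Tomm6 and Tomm7 alone of the 6 kept the call.

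Few members ran the other way in ESC against MEF. The 5 called lower were Timm29 (-0.43 ± 0.12), Mrpl57 (-0.40 ± 0.16), Mrps6 (-0.37 ± 0.15), Mrpl33 (-0.33 ± 0.14) and Mrpl51 (-0.32 ± 0.10). Timm29 kept its direction in all 24 alternatives and its call in every alternative with a test. Median scaling centred on all genes, counted among the 24, gives a difference without a test. The arrays of Mrpl57 and Mrps6 overlapped, and Mrps6 and Mrpl33 lost the call in 7 of 24 and in 9 of 24 alternatives. With the authors' log2 values, without ESC replicate 3 or without MEF replicate 3, the count was 2, with Timm29 and Mrpl51 still called and Mrpl57, Mrps6 and Mrpl33 not. The kept probes of Mrpl51 disagreed (-0.32, 0.36 and -0.01), so no direction is given for it. Mrpl30, Mrpl39, Mrps14 and Mrps15 were called in none of the 6 comparisons, and the group means of Mrps14 stayed between 4.27 in ESC and 4.45 in iPS6F.

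**Figure D3:**
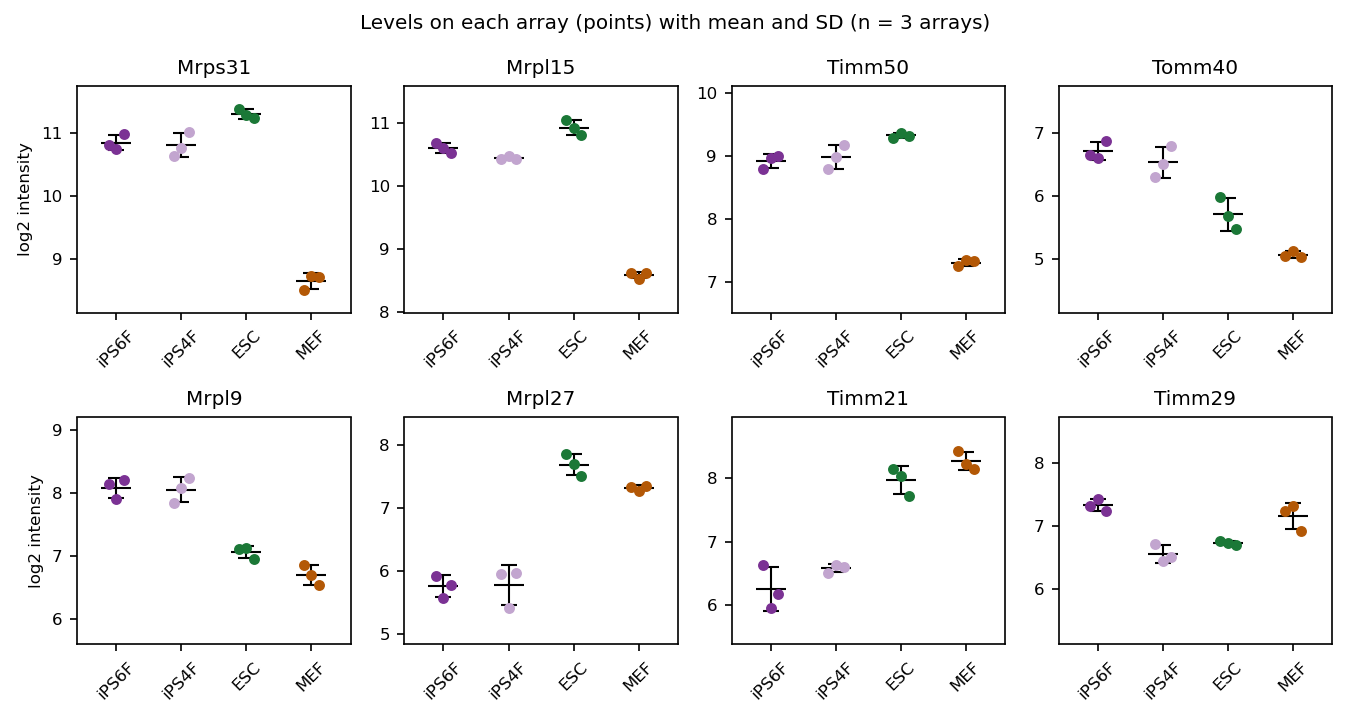
Log2 intensity (vertical axis, the same span in each panel) of 8 members on each array, with the mean and SD of 3 arrays, for iPS6F, iPS4F, ESC and MEF. Mrps31, Mrpl15 and Timm50 are lowest in MEF, Tomm40 and Mrpl9 are highest in the iPS lines, Mrpl27 and Timm21 are lowest there, and Timm29 is higher in iPS6F than in iPS4F.

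The induced pluripotent cells also stood above fibroblasts, with more members below. In iPS4F against MEF 55 of 91 members rose and 14 fell, where 39.8% of all tested genes rose and 39.1% fell, and the medians were 0.60 for the members and 0.04 for all genes. In iPS6F against MEF 57 rose and 13 fell, where 39.2% of all genes rose and 39.4% fell, with medians of 0.57 and 0.03. Under median scaling 62 members rose and 3 fell in iPS4F, and 44 rose and 10 fell in iPS6F. Under that scaling 95.4% of the called members were higher in iPS4F, against 58.5% of all called genes. In iPS6F these shares were 81.5% and 46.8%. These comparisons and that of ESC use the same MEF arrays. Large rises in both lines included Mrps31, Mrpl15, Mrps12, Mrps5 and Mrpl1 with 1.67 to 2.20 for the brightest probe. The 6 kept probes of Mrpl15 disagreed, running from -0.33 to 2.99 in iPS6F and from -0.29 to 2.57 in iPS4F against MEF. Mrpl18, which binds ribosomal RNA in bacteria, was 1.92 ± 0.12 above MEF in iPS6F, 1.54 in iPS4F and 1.55 in ESC.

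Some members were lower in the induced cells than in fibroblasts. Timm21, the subunit that links the presequence translocase to the outer membrane, read 6.62, 5.95 and 6.17 on the iPS6F arrays, 6.50, 6.62 and 6.59 on the iPS4F arrays and 8.15, 8.04 and 7.72 on the ESC arrays, against 8.43, 8.23 and 8.16 on the MEF arrays. Both iPS lines lay at least 1 log2 unit below every ESC and MEF array. Against MEF, Timm21 was lower by 2.02 ± 0.15 in iPS6F (4.07-fold, adjusted p = 2.42e-09) and by 1.70 ± 0.15 in iPS4F, and its 3 probes fell in both lines. Mrpl27, whose bacterial counterpart reaches the peptidyl transferase centre, read 5.93, 5.58 and 5.78 in iPS6F, 5.95, 5.42 and 5.97 in iPS4F and 7.86, 7.70 and 7.52 in ESC, against 7.34, 7.28 and 7.35 in MEF. The iPS arrays formed a separate low group, 1.56 ± 0.15 below MEF in iPS6F and 1.55 ± 0.15 below in iPS4F (adjusted p of 3.46e-08 and 3.95e-08). Timm10b, a small Tim of the carrier translocase in human cells, was 0.93 ± 0.17 below MEF in iPS6F and 1.18 ± 0.17 below in iPS4F. Mrpl52 was 0.86 below in iPS6F and 0.85 below in iPS4F, where median scaling ended the call (-0.56, limma's adjusted p = 0.0722). The brighter probe of Mrps7 was 0.62 and 0.55 below. The other kept probe of Mrps7 ran the opposite way, with 0.44 in iPS6F and 0.38 in iPS4F, so no direction is given for Mrps7 against MEF.

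**Figure D4:**
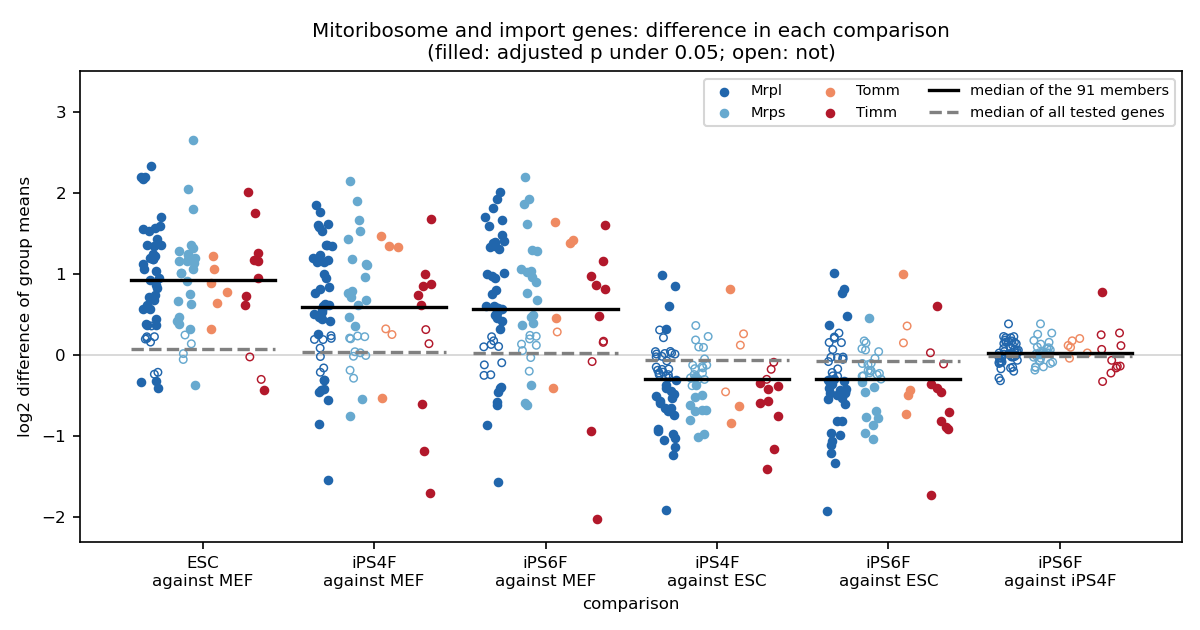
Log2 difference of group means (vertical axis) of each member in the 6 comparisons, coloured by family, filled where the adjusted p is under 0.05, with the median of the 91 members (solid line) and of all 10096 genes (dashed line). The members' median is 0.92 in ESC against MEF, 0.60 and 0.57 in the iPS lines against MEF, and -0.30 in both against ESC, where median scaling turns that of iPS4F to 0.33.

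Against ESC, quantile-normalized values put the iPS lines lower for many members, and this depended on the scaling. In iPS4F against ESC 5 of 91 members rose and 42 fell, where 17.8% of all tested genes rose and 24.9% fell. In iPS6F against ESC 8 rose and 45 fell, where 17.8% rose and 28% fell. The members' median was -0.30 in each, against -0.05 and -0.07 for all genes. Under median scaling 24 members rose and 2 fell in iPS4F, and 8 rose and 9 fell in iPS6F. Higher values made up 41.7% of all genes called in iPS4F against ESC under quantile normalization and 94.5% under median scaling, and 38.9% and 76.5% of those in iPS6F against ESC. Relative to the median of all genes, the members' median under median scaling was -0.06 in iPS4F and -0.13 in iPS6F. Only members that kept their direction and their call under both scalings are described as changed in what follows, except where the sentence says otherwise.

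Mrpl27 and Timm21 had the lowest differences of all members from ESC. Mrpl27 was lower by 1.93 ± 0.15 in iPS6F and by 1.91 ± 0.15 in iPS4F (adjusted p of 4.37e-08 and 5.33e-08), and over the 24 alternatives the value in iPS4F stayed between -2.42 and -1.20. Timm21 was lower by 1.72 ± 0.15 in iPS6F and by 1.40 ± 0.15 in iPS4F. Mrpl58, a peptidyl-tRNA hydrolase built into the large subunit, read 5.93, 5.81 and 5.94 in iPS6F and 5.92, 6.19 and 6.18 in iPS4F, against 7.18, 7.35 and 7.15 in ESC. All iPS arrays were below all ESC arrays. Mrpl58 differed from ESC by -1.33 ± 0.12 in iPS6F and by -1.13 ± 0.12 in iPS4F. Under median scaling it kept the call in iPS6F (limma's adjusted p = 0.00171) and lost it in iPS4F (-0.47, limma's adjusted p = 0.0571). Mrpl34 differed by -1.21 ± 0.16 in iPS6F and -1.23 ± 0.16 in iPS4F, Mrpl55 by -1.11 and -1.02, and Mrps18a by -1.04 and -1.01, and these 3 kept the call under median scaling in iPS6F but not in iPS4F. Timm10b (-0.91 and -1.16) and Mrpl52 (-1.06 and -1.05) lost it in both lines. Mrpl27, Mrpl58, Mrpl34, Mrpl55, Mrps18a and Mrpl52 had 1 kept probe each, so the alternatives could not check them with another probe.

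A few members were higher in the iPS lines than in ESC. Mrpl9, a large subunit protein with a bacterial counterpart, read 8.13, 7.90 and 8.19 on the iPS6F arrays and 7.84, 8.07 and 8.23 on the iPS4F arrays, against 7.11, 7.13 and 6.95 on the ESC arrays, while MEF read 6.85, 6.69 and 6.54. Every iPS array was above every ESC array. The difference was 1.01 ± 0.13 in iPS6F (adjusted p = 8.18e-06) and 0.99 ± 0.13 in iPS4F (adjusted p = 1.34e-05), and its other probe gave 0.72 and 0.73. Tomm40, the channel of the outer membrane, read 6.66, 6.61 and 6.87 in iPS6F and 6.31, 6.51 and 6.79 in iPS4F, against 5.99, 5.68 and 5.47 in ESC, and MEF read 5.05, 5.13 and 5.03. The iPS arrays did not overlap with the ESC arrays. Tomm40 was 0.998 ± 0.14 above ESC in iPS6F and 0.82 ± 0.14 above in iPS4F. Its size ran from 0.54 to 1.38 in iPS6F and from 0.44 to 1.45 in iPS4F over the alternatives. Mrpl53 (0.81 ± 0.13 in iPS6F and 0.85 ± 0.13 in iPS4F), Mrpl4 (0.48 and 0.32) also rose. Mrpl45 was called higher as well, but it was detected on 1 of 3 ESC arrays and its size followed the background step, from 0.26 to 2.31 in iPS6F and from 0.20 to 1.94 in iPS4F over the alternatives. Mrpl45 helps anchor the ribosome at the inner membrane in human mitochondria. It was detected on no MEF array and was called higher than in MEF in both iPS lines, with differences of 0.34 to 3.26 in iPS6F and 0.28 to 2.88 in iPS4F over the alternatives. The call of Mrpl4 in iPS4F against ESC ended without ESC replicate 3 (0.24) and in 5 other alternatives. Tomm40, Mrpl53, Mrpl4 and Mrpl45 had 1 kept probe each.

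The iPS lines made with and without Brg1 and Baf155 differed in 1 of 91 members. In iPS6F against iPS4F 1 member rose and 0 fell, where 0.396% of all tested genes rose and 0.763% fell, and 6 members had an unadjusted p under 0.05 in limma's fit. The median was 0.03 for the members and -0.01 for all genes. That member was Timm29, which read 7.32, 7.43 and 7.24 on the iPS6F arrays, against 6.71, 6.44 and 6.51 on the iPS4F arrays, and beside them 6.76, 6.73 and 6.70 on the ESC arrays and 7.24, 7.32 and 6.93 on the MEF arrays. The iPS6F arrays all lay above the iPS4F and ESC arrays. The difference was 0.78 ± 0.12 (1.71-fold, 95% interval 0.52 to 1.03, adjusted p = 0.00247), and median scaling ended the call (0.39, adjusted p = 0.26). Against ESC, Timm29 was 0.60 ± 0.12 higher in iPS6F and differed by -0.17 ± 0.12 in iPS4F (adjusted p = 0.262). It had 1 kept probe. For the other members the widest differences between the lines were between -0.33 (Timm21) and 0.39 (Mrps11 and Mrpl18), and none passed the threshold.

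Paralogs in the families had different values. Tomm40l, the paralog of the channel, differed from MEF by 0.32 in ESC, -0.40 in iPS6F and -0.52 in iPS4F. Tomm40 rose by 0.64, 1.64 and 1.47 in the same order. Over the alternatives the rise of Tomm40 ran from 0.27 to 1.18 in ESC, 0.81 to 2.56 in iPS6F and 0.70 to 2.34 in iPS4F. Under median scaling Tomm40l in ESC turned to -0.07 and its call in iPS4F ended (-0.22, limma's adjusted p = 0.359). Against ESC, Tomm40l gave -0.72 ± 0.11 in iPS6F and -0.84 ± 0.11 in iPS4F with its other probe at -0.52 and -0.62, and median scaling ended both calls. The difference between paralogs was not tested. Of the Mrps18 proteins, whose human counterparts occupy different sites of the ribosome, Mrps18b rose against MEF in ESC (1.32), iPS6F (1.28) and iPS4F (1.18). Mrps18a and Mrps18c each rose by 1.01 in ESC and did not pass in the iPS lines, with -0.03 and 0.23 in iPS6F and -0.00 and 0.21 in iPS4F. Of the Timm8 chaperones Timm8b rose by 0.61 in ESC, against 1.76 for Timm8a1. Timm10 rose by 0.73 in ESC. Median scaling ended the calls of Timm8b (0.39), Timm10 (0.25) and Mrps18c (0.62) in ESC against MEF. Timm10 gave -0.08 in iPS6F and 0.14 in iPS4F, which did not pass.

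Several probes of a gene allow a check of its direction. Of the 91 members 34 had more than 1 kept probe. In ESC against MEF the kept probes of 3 of these 34 had opposite signs with at least 1 of them past the threshold, in iPS4F and iPS6F against MEF 5 and 3, in iPS4F and iPS6F against ESC 9 and 13, and in iPS6F against iPS4F 0. The 3 probes of Mrps31 gave 2.08 to 2.65 in ESC against MEF, and both probes of Mrps12 gave 1.80 and 1.96. Mrpl15 had 6 kept probes, and those for ESC against MEF ranged from 0.40 to 2.45. For Tomm34 the brighter probe gave -0.43 in iPS6F and -0.63 in iPS4F against ESC and the other 0.86 and 0.83, each past the threshold. Mrpl10 parted likewise, with -0.48 and -0.69 for the brighter probe and 0.59 and 0.65 for the other. No direction is given for Tomm34 and Mrpl10 against ESC. The Timm21 probes gave -1.72, -0.57 and -1.42 in iPS6F and -1.40, -0.60 and -1.20 in iPS4F, and those of Timm10b were below 0 in both lines as well.

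**Figure D5:**
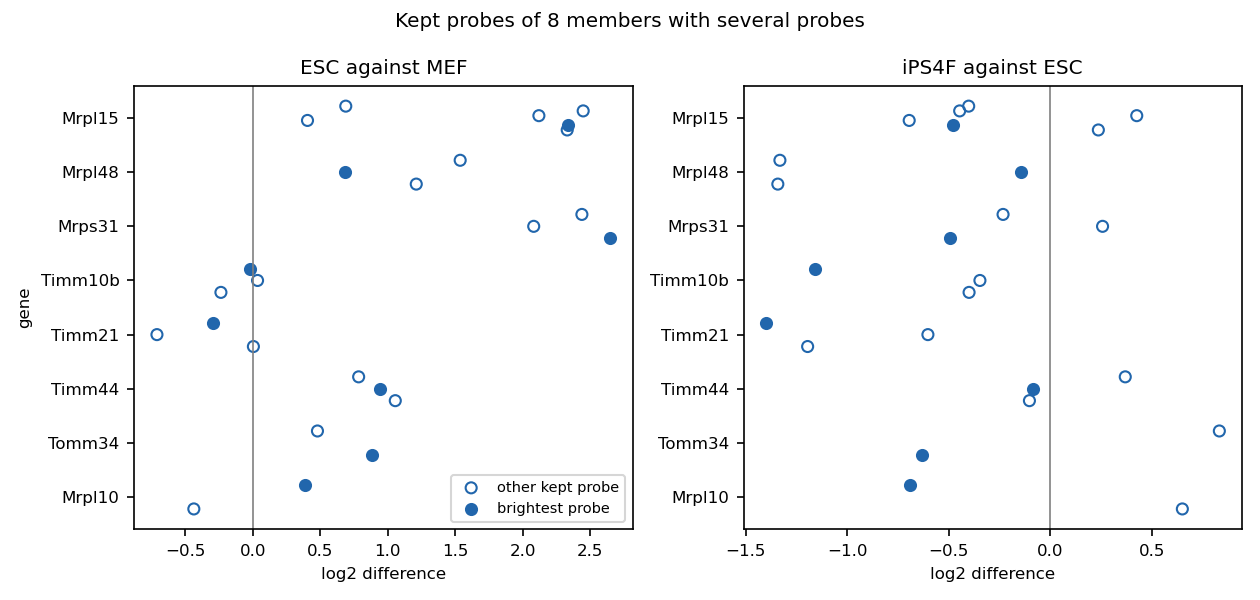
Log2 difference (horizontal axis) of every kept probe of 8 members in ESC against MEF (left) and in iPS4F against ESC (right), filled for the brightest probe, which stands for the gene. The probes of Mrps31 lie together on the left, those of Mrpl15 spread from 0.40 to 2.45, and on the right those of Tomm34 and Mrpl10 fall on both sides of 0. Median scaling moves the right panel up, where it takes the median of all tested genes from -0.05 to 0.39.

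The promoter motifs can be set beside the differences. In ESC against MEF the median of the 33 tested members with an ETS-type motif was 0.73 (25 rose, 4 fell) and that of the 47 without 1.07 (38 rose, 1 fell). With and without the NRF1-type motif the medians were 0.57 (13 members) and 0.95 (67 members), with and without the YY1-type motif 1.01 (9 members) and 0.88 (71 members). The 8 members with an E-box, Timm8a1, Timm9, Timm10, Mrpl2, Mrpl20, Mrpl36, Mrpl37 and Mrps18c, had a median of -0.80 in iPS6F and -0.67 in iPS4F against ESC, with 7 of 8 lower in each. The 72 without gave -0.25 and -0.28, with 32 and 30 lower, where 28% and 24.9% of all tested genes were lower. In ESC against MEF the medians with and without an E-box were 0.98 and 0.90. For the other motifs, the medians with and without in iPS6F against ESC lay closer. They were -0.30 and -0.25 for the ETS type, -0.17 and -0.30 for the NRF1 type and -0.26 and -0.30 for the YY1 type. These splits are descriptions over members and were not tested, and they move with the scaling like the other values against ESC. The Mrps12 promoter shown above is shared with Sars2, the mitochondrial seryl-tRNA synthetase, which starts 147 bases away on the other strand and rose by 0.81 in ESC against MEF. Mrpl46 and Mrps11, a large and a small subunit gene, start 42 bases apart and rose by 1.59 and 0.43. Of 30 head-to-head pairs 19 had both genes tested, and 10 of these had both genes higher in ESC than in MEF, 0 both lower and 2 opposite. The opposite pairs were Mrpl51, whose probes disagree, with Ncapd2 (2.75) and Mrpl57 with Ska3 (2.04), genes of chromosome condensation and segregation. Among the 19 partners 14 were higher and 1 lower, where 79.1% of the 91 members and 40.3% of all tested genes were higher. With shares this high in members and partners, many jointly higher pairs occur without a link, and a link was not tested. In iPS4F against ESC 0 pairs were both higher, 6 both lower and 4 opposite, and in iPS6F against ESC 0, 2 and 4.

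Many other genes of mitochondrial protein synthesis and upkeep rose as well in ESC against MEF, where 40.3% of all tested genes rose and 36.3% fell. The counts and values of these lists, here and in the next paragraph, are under quantile normalization. They were not repeated under median scaling. Of 15 translation factors 11 rose and 1 fell, led by Mtif3, an initiation factor (2.76), and Gfm2, a ribosome recycling factor (1.94). Of 12 aminoacyl-tRNA synthetases 11 rose, and Wars2 fell (-0.86). Ribosomal proteins named otherwise all rose, 4 of 4: Gadd45gip1 (1.38), Chchd1 (1.30), Dap3 (0.81) and Ptcd3 (0.53). Ribosome assembly factors rose in 11 of 15 cases, with Mtg1, a GTPase, at 1.87. Of 14 genes of mitochondrial DNA and RNA maintenance 13 rose, among them Ssbp1 (1.80), Tefm (1.78) and Tfam (1.67), which packages the genome, and Tfb2m fell (-0.33). Proteases and chaperones rose in 10 of 13 cases, and Htra2 fell (-0.92).

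Of the import motor and sorting genes 8 of 16 were higher and 3 lower in ESC against MEF, a share of rises near the 40.3% of all tested genes. Chchd4, the oxidoreductase that traps proteins in the intermembrane space, gave 3.00 in ESC, 3.00 in iPS6F and 2.80 in iPS4F, and its partner Gfer 1.83, 1.27 and 1.31. Hspa9, the motor's chaperone, gave 0.05, -0.06 and 0.05 and did not pass. Oxa1l, which inserts the products of the mitochondrial ribosome into the membrane, gave -0.06 in ESC, and under quantile normalization it rose by 1.67 in iPS6F and by 1.38 in iPS4F against ESC. Of 7 regulators of mitochondrial genes 5 rose in ESC against MEF, among them both subunits of GABP, which binds the ETS-type motif: Gabpa at 1.05 and Gabpb1 at 1.48. Nrf1, for which the NRF1-type motif is named, gave -0.15 in ESC against MEF and did not pass. It was called lower than in MEF in both iPS lines, with -0.81 in iPS6F and -0.88 in iPS4F. Beside Timm29, Gadd45gip1 of the large ribosomal subunit was the only gene of these 8 mitochondrial lists past the threshold between the iPS lines. It was 0.84 higher in iPS6F under quantile normalization, and its call under median scaling was not checked. Under median scaling 42 of all tested genes were called in iPS6F against iPS4F, 7.14% of them higher.

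Under quantile normalization, many genes of chromosome 8 were lower in the iPS lines than in ESC. Of 540 tested genes there, 288 fell and 35 rose in iPS6F and 279 fell and 39 rose in iPS4F, with medians of -0.41 and -0.38. These falls were 53.3% and 51.7%, against 26.6% and 23.4% of genes elsewhere. In ESC against MEF 54.3% of the chromosome 8 genes rose (median 0.41), against 39.5% elsewhere. In iPS6F and iPS4F against MEF 39.1% and 41.3% rose, against 39.2% and 39.7% elsewhere. The members on chromosome 8 are Mrpl34, Mrps31 and Timm44. Without these 3, 43 of 88 members fell in iPS6F and 40 of 88 in iPS4F, with medians of -0.28 and -0.29. The part of the chromosome in the values of Mrpl34, Mrps31 and Timm44, against ESC and in ESC against MEF, was not tested.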

How the data were processed

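The authors deposited bead-averaged intensities per probe and array, neither normalized nor background-subtracted, with a detection p-value per probe and array, per the file headers. They also deposited a log2 table whose 12 columns share 1 distribution; its background step and any shift are not stated there, and it served as an alternative. BeadStudio 3.2, RMA and lumi are named in the submitters' processing notes, with no role stated.

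Intensities were corrected with limma's neqc (offset 16, background from the detection p-values), quantile-normalized and log2-transformed (limma 3.58.1, R 4.3.3). Of 45281 probes, 34885 had 1 symbol in the platform annotation, which can be old, 18 had several and 10378 none. Probes needed a detection p under 0.05 on every array of at least 1 group, and the brightest kept probe stood for the gene. A fit of 4 group means over all 12 arrays (lmFit, eBayes) was adjusted by Benjamini-Hochberg over 10096 genes within each comparison, and was tested on simulated data. The number of arrays limits the precision.

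The members and the gene lists were chosen with earlier results of these data known. Named members are, per comparison, the 6 highest and 6 lowest called with arrays that do not overlap, all Tomm and Timm genes and paralogs, genes whose probes disagree, the 3 steadiest, and up to 3 genes per related list. Others (Mrpl57, Mrpl46, Mrps11, Mrps15, the E-box genes, Sars2, Ncapd2, Ska3, Hspa9, Htra2, Tfb2m, Wars2 and Ptcd3) were named after their values were seen. Alternatives covered background, scaling, filter, probes, prior, replicate block and left-out arrays. Median scaling centred on all genes, and leaving out chromosome 8, were added after seeing the data.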

Additional observations from a re-analysis of the deposited data

Results flagged for a closer look

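Timm29 was the only member that separated the iPS lines. It averaged 7.33 in iPS6F and 6.55 in iPS4F, a log2 difference of 0.78 (limma's adjusted p = 0.00247, higher in 3 of 3 arrays). Both lines are compared with the same MEF arrays, so this is also the difference between their changes from MEF, which were 0.17 in iPS6F and -0.60 in iPS4F. Under median scaling it was 0.39 (limma's adjusted p = 0.26).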

How the results depend on the processing

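Scaling mattered most. Under median scaling, members called higher numbered 46 in ESC against MEF, 24 in iPS4F against ESC and 0 in iPS6F against iPS4F. Members called lower numbered 3 in iPS4F against MEF, 2 in iPS4F against ESC and 9 in iPS6F against ESC. Of all genes called under this scaling, 37.9% were higher in ESC against MEF and 58.5% in iPS4F against MEF. The shares were 94.5% in iPS4F against ESC, 76.5% in iPS6F against ESC and 7.14% in iPS6F against iPS4F. The members' median turned to 0.33 in iPS4F against ESC and to -0.37 in iPS6F against iPS4F (-0.075 centred on all genes). With every kept probe in place of the brightest, the counts are of 141 member probes and not of genes. In ESC against MEF 114 of 121 called member probes were higher. In iPS4F and iPS6F against MEF 86 of 104 and 92 of 110 called member probes were higher. In iPS4F and iPS6F against ESC 14 of 68 and 19 of 76 were higher. Of all called probes, 52.1%, 53%, 52.7%, 49.1% and 47.7% were higher, in the same order of comparisons. Members lower in ESC against MEF numbered 2 with the authors' log2 values, 3 with no filter on dim probes and 3 with detection at p under 0.01 on all 12 arrays.

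Under median scaling these differences changed sign: in ESC against MEF Mrpl27 (-0.077), Mrpl9 (-0.094) and Tomm40l (-0.074), in iPS4F against MEF Mrpl10 (0.086), and in iPS4F against ESC Mrpl1 (0.25), Mrpl15 (0.13), Mrpl3 (0.020), Mrpl37 (0.23), Mrpl40 (0.081), Mrpl43 (0.39), Mrpl47 (0.055), Mrps26 (0.45), Mrps31 (0.10), Mrps5 (0.31), Mrps7 (0.0059), Timm10 (0.10), Timm17a (0.056), Timm50 (0.33), Timm8a2 (0.14), Timm9 (0.23) and Tomm34 (0.079). Median scaling also ended, with the direction kept, the calls of 13 of 43 named members in ESC against MEF, 6 of 39 in iPS4F against MEF, 7 of 40 in iPS6F against MEF, 10 of 34 in iPS4F against ESC and 23 of 36 in iPS6F against ESC. Centred on all genes, Mrpl43 (0.0035) and Mrps26 (0.064) still did. With the mean of the kept probes, the sign changed for Mrpl10 (-0.027) and Mrpl51 (0.011) in ESC against MEF, for Mrps26 (0.041) and Tomm34 (0.10) in iPS4F against ESC, and for Mrpl10 (0.056), Mrpl3 (0.088), Mrps31 (0.014) and Tomm34 (0.22) in iPS6F against ESC. The cause was not tested.

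With 1 array left out, members higher and lower ranged from 70 to 73 and 2 to 6 in ESC against MEF, 54 to 57 and 11 to 14 in iPS4F against MEF, 55 to 58 and 11 to 13 in iPS6F against MEF, 4 to 6 and 35 to 44 in iPS4F against ESC, and 6 to 9 and 36 to 48 in iPS6F against ESC. In iPS6F against iPS4F 1 was higher each time, and the median ranged from -0.0022 (without iPS4F replicate 2) to 0.065 (without iPS4F replicate 3). Members lower in ESC against MEF numbered 2 without ESC replicate 3 or MEF replicate 3, and 3 without ESC replicate 2 or MEF replicate 2. With the replicate block 73 members were higher and 3 lower in ESC against MEF. Deviations of same-numbered arrays correlated weakly (r from -0.18 to 0.14). With 3 arrays a group this cannot decide whether the numbers pair the arrays, and the labels do not say. A slide block was not run, since the headers used here name no slides. Dim members such as Mrps14, Mrpl39 and Mrpl45 lie near background.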
